A study of Owenia fusiformis with 26 samples.

Results

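*delta* (OFUSG11344) and *notch-like* (OFUSG01867) are the Notch pathway genes among the candidates that the study of ERK1/2 signalling in the annelid *Owenia fusiformis* placed in the posterior tip and chaetae of the larva. They were taken from the deposited expression table by identifier, and they are 2 of the 26966 genes of that table. Each is represented by 1 of the 31903 transcripts. Their best protein matches in the annotation of the study are Delta-like 1 of human for *delta* and Notch 1 of *Xenopus* for *notch-like*. Their mRNA was followed through normal development in 12 stages with 2 RNA-seq libraries each, 24 in all. The stages were the unfertilised oocyte, the 1-cell zygote, the 2-cell, 4-cell and 8-cell embryo, embryos at 3 and 4 hours post fertilisation (hpf), the coeloblastula at 5 hpf, the gastrula at 9 hpf, elongation at 13 hpf, and larvae at 18 hpf (early) and 27 hpf (mature). The libraries were made from whole oocytes, embryos or larvae of normal cultures, with no drug and no genetic change, so a value does not tell in which cells a gene was expressed. In such samples, fewer cells of a type and less RNA per cell cannot be told apart. The study describes the replicates as biological, but the labels do not say whether the libraries of a stage came from separate parents, so p-values measure only the spread between these libraries.

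Notch signalling passes between cells that touch. A Delta ligand on the surface of a cell binds a Notch receptor on its neighbour, proteases then cut the receptor, and its intracellular part enters the nucleus and switches on targets such as the Hes repressors. In animal embryos this exchange is known for separating the fates of adjacent cells, among them neurons, mesoderm and boundaries between tissues. In *O. fusiformis* the founder of trunk mesoderm and hindgut is set apart around the coeloblastula stage, and the time course shows when each gene rose relative to that time.

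The values were the normalised expression of the authors, already scaled between libraries, and a level can be compared between libraries but not between genes, whose lengths are unknown here. The smallest steps between low values put 1 read at a value of 0.956 to 1.61, and a library at 22.4 to 37.2 M reads, with a median of 27.7 M. These depths are estimates, since the share of low values within 0.1 of a whole read was between 52.7% and 100% in a library (median 96.2%). Markers of differentiated larval tissue ran with the stage labels. The summed value of 4 muscle genes was between 28134 and 335938 in libraries from 9 hpf on and between 11215 and 17659 up to 3 hpf, and that of 3 chitin synthase genes, whose product builds chaetae, was between 1662 and 6193 against 25.7 to 65.1. The sum of 2 genes of motile cilia overlapped, with 2899 to 50431 from 9 hpf on and 2502 to 4896 up to 3 hpf. No pair of replicates was a duplicate: the squared difference of their values was on average at least 56.4 times what counting alone gives. Differences between stages were tested in limma, on log2(value + 1) and in 1 fit of all 24 libraries, and a gene was called where its Benjamini-Hochberg adjusted p over all 23934 genes tested was under 0.05. Both genes were among those tested.

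*delta* mRNA was already present in the oocyte, with 334 in replicate 1 and 365 in replicate 2. It was 364 and 349 at 1 cell, 439 and 311 at 2 cells, 382 and 357 at 4 cells, and 422 and 349 at 8 cells. These 10 libraries lay between 311 and 439, or an estimated 214 to 313 reads each, and did not separate by stage. At 3 hpf the replicates parted, with 709 in replicate 1, above all earlier libraries, and 407 in replicate 2, inside their range.

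At 4 hpf *delta* stood at 2402 and 2671, above every earlier library. It was 3559 and 3247 at the coeloblastula, 6427 and 5322 in the gastrula and 4350 and 5234 at elongation. In larvae it was lower again, with 3261 and 3415 at 18 hpf and 2740 and 2552 at 27 hpf. The stage mean was therefore highest in the gastrula, at 5875 ± 782 (SD, n = 2). The mean at 4 hpf was 43.2% of that peak, the coeloblastula 57.9%, elongation 81.6%, the early larva 56.8% and the mature larva 45.0%.

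*notch-like*, by contrast, was close to the limit of detection before 5 hpf. In replicate 1 it was listed at 0 in the oocyte and at 1, 2 and 8 cells, at 1.36 at 4 cells and at 2.67 at 3 hpf. In replicate 2 it was 11.3 in the oocyte, 3.66 at 1 cell, 12.3 at 2 cells, 10.5 at 4 cells, 3.47 at 8 cells and 9.56 at 3 hpf. An estimated 3 reads over 6 libraries stand behind the values of replicate 1 and 38 behind those of replicate 2. A count of 0 still allows 3 reads, or a value of 4.20 to 4.79 in these 4 libraries, and this covers counting error only.

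Replicate 2 was above replicate 1 at each of these 6 stages. This order is common in the table, being found in 23.6% of all genes tested, with the opposite order in 21.9%. Of the 727 genes that, like *notch-like*, had a mean under 10 up to 3 hpf and of at least 500 from 9 hpf on, 69 (9.49%) had this order and 33 (4.54%) the opposite. The summed value of the 727 genes was between 2588 and 3886 in the replicate 2 libraries and between 1734 and 2748 in those of replicate 1. The part of this difference in the traces of *notch-like* was not tested.

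At 4 hpf *notch-like* was 21.9 in replicate 1, above all earlier libraries, and 10.3 in replicate 2, inside their range. It was 521 and 349 at the coeloblastula, where both libraries lay above all 14 earlier ones. The gastrula had 1619 and 949, elongation 1433 and 1031, and the early larva 1294 and 1659, so that these 3 stages overlapped. The mature larva, with 2288 and 2628, lay above every other library and had the highest stage mean, at 2458 ± 240 (SD, n = 2). Against that mean, 4 hpf reached 0.655%, the coeloblastula 17.7%, the gastrula 52.2%, elongation 50.1% and the early larva 60.1%.

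**Figure D1:**
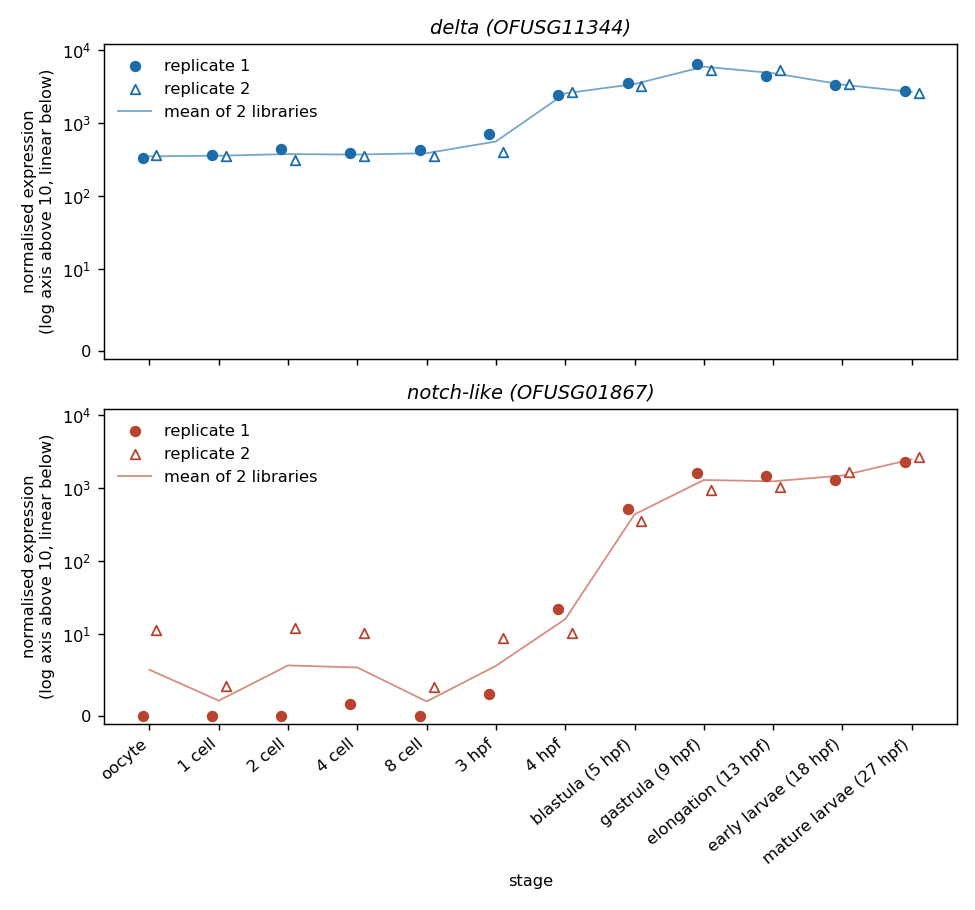
Normalised expression (vertical axis, logarithmic above 10 and linear below) of *delta* (top) and *notch-like* (bottom) at the 12 stages in order of development, with replicate 1 as filled circles, replicate 2 as open triangles and the mean of 2 libraries as a line. *delta* lies between 311 and 439 up to 8 cells and peaks in the gastrula, whereas *notch-like* is at most 21.9 before the coeloblastula and highest in the mature larva.

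Both genes rose between the period up to 3 hpf and the period from 9 hpf on. The 8 later libraries of *delta* had a lowest value of 2552, a median of 3882 and a highest of 6427, and its 12 earlier libraries had 311, 365 and 709. The periods did not overlap, and the ratio of their means was 10.4. For *notch-like* the later libraries had a lowest value of 949, a median of 1526 and a highest of 2628, against 0, 3.07 and 12.3 in the earlier ones. Here too the periods were apart, as they were upward in 23.2% of all genes tested, with a ratio of means of 353 that rests on an estimated 41 reads in the earlier libraries.

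On the log2(value + 1) scale *delta* rose by 3.34 (standard error 0.11, limma adjusted p = 1.74e-13) and *notch-like* by 8.76 (standard error 0.58, adjusted p = 7.27e-10). The change of *notch-like* was above that of 98.8% of genes tested and the change of *delta* above that of 81.6%. Calls were the rule in this comparison, with 77.4% of genes tested called, 51.0% as higher, and a median difference over all genes of 0.78. Rescaling the libraries by trimmed means of M-values (TMM) lowered that median to 0.42, the rise of *delta* to 3.00 and that of *notch-like* to 8.47. The size of the *notch-like* change also depended on the pseudocount, because its earlier values are near 0: it was 10.05 with a pseudocount of 0.1 and 6.79 with 10, and it was called with each.

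Step by step, the first called change of *delta* was at 4 hpf. Up to 8 cells its differences between successive stages were at most 0.06 on the log2 scale, each with a standard error of 0.24, and none was called. No gene of the table was called at 1 cell against the oocyte, 2 cells against 1 cell, 4 cells against 2 cells or 8 cells against 4 cells (0% each in limma, with 213 to 1540 genes at an unadjusted p under 0.05). At 3 hpf *delta* differed from 8 cells by 0.48 (95% interval -0.03 to 1.00, limma adjusted p = 1.00), in a comparison that called 0.171% of genes. That difference was 0.88 without replicate 2 of 3 hpf and 0.08 without replicate 1.

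At 4 hpf *delta* was higher than at 3 hpf by 2.24 (standard error 0.24, limma adjusted p = 0.000146), a ratio of means of 4.55. Few genes were called at this step (0.639%), and the change of *delta* was above that of 97.7% of genes. Leaving out a library of either stage gave 1.83 to 2.64, all called. With only the 4 libraries of these stages no gene was called, and the adjusted p of *delta* was 0.570.

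From 4 to 5 hpf the difference of *delta* was 0.42 (95% interval -0.09 to 0.94, limma adjusted p = 0.835), and 1.27% of genes were called. In the gastrula it was higher than in the coeloblastula by 0.78 (standard error 0.24, limma adjusted p = 0.0237), in a comparison that called 29.5% of genes with a median difference of 0.40. This call was lost with TMM scaling, where the difference was 0.50 (adjusted p = 0.148), and without replicate 1 or 2 of the coeloblastula or replicate 1 of the gastrula, or with only the libraries of both stages, at adjusted p between 0.0628 and 0.153. Taken from 4 hpf, the gastrula was higher by 1.21 (standard error 0.24, limma adjusted p = 0.000961), against 39.3% of genes called.

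The steps after the gastrula were each downward for *delta* and none passed the test alone. The differences were -0.29 at elongation against the gastrula (6.32% of genes called), -0.52 in the early larva against elongation (2.64% called) and -0.34 in the mature larva against the early larva (3.72% called), with limma adjusted p of 0.682, 0.371 and 0.673.

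For *notch-like* the largest difference between successive stages was that of the coeloblastula against 4 hpf, at 4.73 (95% interval 2.02 to 7.45), above that of 99.8% of genes tested. Its values were 521 and 349 at the coeloblastula and 21.9 and 10.3 at 4 hpf, a ratio of means of 27.0. The limma adjusted p was 0.103, so it was not called in the main fit. With the replicate number added to the fit as a block it was called (limma adjusted p = 0.0258). The main fit uses 1 spread for all stages, which limma draws towards that of other genes. Before this step it was 1.39 on the log2 scale for *notch-like*, against 0.223 for *delta* and a median of 0.652 over all genes. The spread used in the test was 1.28 for *notch-like* and 0.244 for *delta*. With a pseudocount of 10, which compresses differences between values near 0, the difference was 4.10 and its adjusted p was 0.000235.

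At 4 hpf against 3 hpf *notch-like* differed by 1.37 (95% interval -1.35 to 4.09, limma adjusted p = 1.00), and no earlier step of it was called. The gastrula was higher than the coeloblastula by 1.54 (95% interval -1.18 to 4.25, adjusted p = 0.411), which was called with a pseudocount of 10 (adjusted p = 0.0281) and with only the libraries of both stages (adjusted p = 0.0328). Across both steps, gastrula against 4 hpf, *notch-like* rose by 6.27 (standard error 1.28, limma adjusted p = 0.00102). Its later steps, of -0.03 at elongation, 0.27 in the early larva and 0.74 in the mature larva, were not called.

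**Figure D2:**
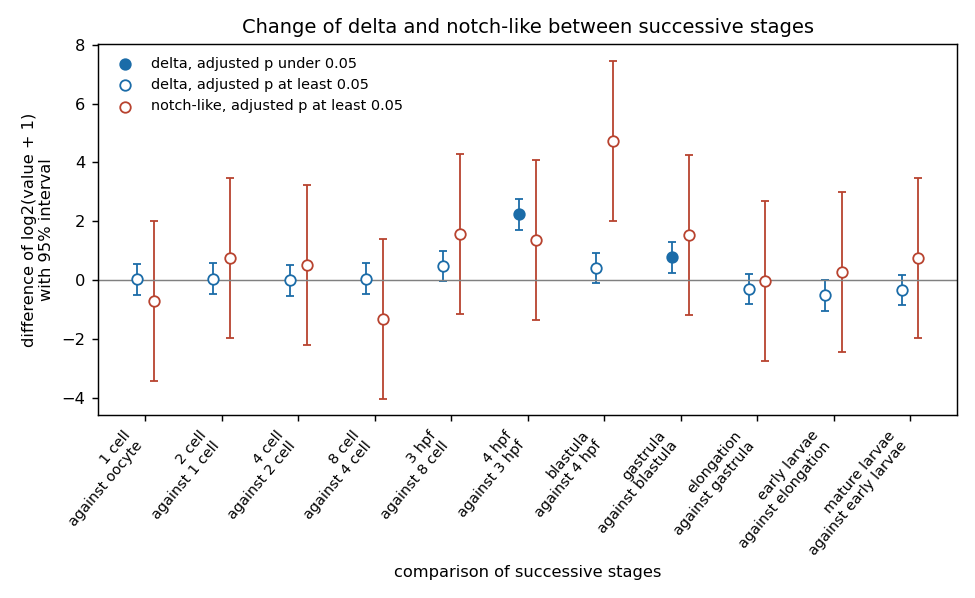
Difference of log2(value + 1) between each stage and the stage before it (vertical axis), with its 95% interval from limma, for *delta* (blue) and *notch-like* (red), with the 11 comparisons in order of development and filled points for an adjusted p under 0.05. *delta* was called at 4 hpf (2.24) and in the gastrula (0.78), while the wide intervals of *notch-like* leave its difference of 4.73 at the coeloblastula uncalled. That difference was called in a fit with a replicate block, which is not shown.

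The stages of *delta* were also ordered by stage mean. From the lowest, the order was oocyte, 1, 4, 2 and 8 cells, 3 hpf, 4 hpf, mature larva, early larva, coeloblastula, elongation and gastrula. Of the 11 pairs of neighbours, that of 4 hpf and 3 hpf was called. The stages above this step were not at a single level, since the gastrula was called higher than 4 hpf. Mature larvae did not differ from 4 hpf beyond the spread (difference 0.06, 95% interval -0.46 to 0.58), and the coeloblastula did not differ from early larvae (0.03, -0.49 to 0.55). Elongation and the coeloblastula differed by 0.49 (-0.03 to 1.01, limma adjusted p = 0.123) and the gastrula and elongation by 0.29 (-0.23 to 0.81). In the comparisons not given above, the share of all genes called was 55.5% for mature larvae against 4 hpf, 47.5% for the coeloblastula against early larvae, 41.7% for elongation against the coeloblastula, and 0% for 4 cells against 1 cell and for 8 cells against 2 cells.

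For *notch-like* the order from the lowest was 8, 1 cell, oocyte, 4 cells, 3 hpf, 2 cells, 4 hpf, coeloblastula, elongation, gastrula, early larva and mature larva. None of its 11 pairs of neighbours was called in the main limma fit. The coeloblastula against 4 hpf, with an unadjusted p of 0.00200, was the 1 pair with an unadjusted p under 0.05. The order among the 7 lowest stages rests on 0 to 17 estimated reads a library. Early larvae and the gastrula differed by 0.24 (95% interval -2.47 to 2.96) in a comparison that called 23.3% of genes. The remaining comparisons of neighbours called 0% (1 cell against 8 cells, 4 cells against the oocyte), 0.242% (3 hpf against 4 cells), 0.506% (2 cells against 3 hpf) and 2.36% (4 hpf against 2 cells) of genes.

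After gastrulation *delta* fell, while *notch-like* had no called change in the fit of all libraries. *delta* had 2552 to 3415 in the 4 libraries of larvae, against 4350 to 6427 in the 4 of gastrula and elongation, with no overlap. Of all genes tested, 13.8% had all larval libraries below and 18.3% had them all above. *delta* fell by 0.83 on the log2 scale in larvae (standard error 0.17, limma adjusted p = 0.00143), to 0.561 of the earlier mean, and 33.7% of genes were called in this comparison, 14.6% as lower. *notch-like* had 1294 to 2628 in larvae and 949 to 1619 in gastrula and elongation, so the groups overlapped. Its difference was 0.63 (95% interval -1.29 to 2.55, limma adjusted p = 0.655), with a ratio of means of 1.56. In a fit of only these 8 libraries, without the near-0 stages, the same difference had a standard error of 0.22 and an adjusted p of 0.0481.

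Whether the 2 genes changed by different amounts was tested on the log2 ratio of *notch-like* to *delta* within each library, which is read only as a change between libraries. The ratio was between -2.49 and 0.04 in the 8 libraries from 9 hpf on and between -8.78 and -4.55 in the 12 up to 3 hpf. Its mean was -1.38 ± 0.92 (SD, n = 8) in the later period and -6.80 ± 1.62 (SD, n = 12) in the earlier. The difference of 5.42 had p = 1.59e-05 in an exact two-sided permutation test, the smallest p that this test can give here. Each period pools libraries of different stages, so this p does not separate spread between replicates from differences between stages. Up to 3 hpf the ratio was also split by replicate number, at -8.78 to -7.34 in replicate 1 and -6.29 to -4.55 in replicate 2. The test treats all libraries as independent, so its p takes no account of differences shared by libraries of the same replicate number. With replicate 1 alone the difference was 6.93 and with replicate 2 alone 3.91. It was 6.71 with a pseudocount of 0.1 and 3.48 with 10, at the same p.

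The ratio also differed within the later period. It was -1.33 and -1.04 at 18 hpf and -0.26 and 0.04 at 27 hpf, against -1.99 and -2.49 at 9 hpf and -1.60 and -2.34 at 13 hpf. The means of -0.65 ± 0.65 in larvae and -2.10 ± 0.40 in gastrula and elongation (SD, n = 4 each) differed by 1.46, with an exact two-sided permutation p of 0.0286, again the smallest this design allows. This p pools stages in the same way. The difference was upward within each replicate, at 0.998 in replicate 1 and 1.92 in replicate 2.

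**Figure D3:**
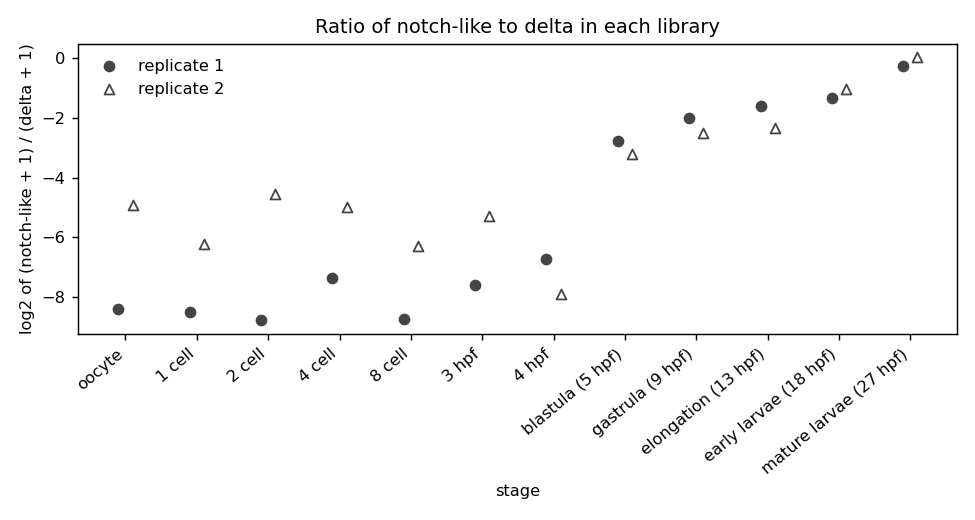
The log2 of (*notch-like* + 1) over (*delta* + 1) in each library (vertical axis) at the 12 stages in order of development, with replicate 1 as filled circles and replicate 2 as open triangles. The 8 libraries from 9 hpf on lie between -2.49 and 0.04, above the 12 libraries up to 3 hpf, where replicate 2 is above replicate 1 at every stage.

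Other Notch pathway genes were taken by their best protein match in the annotation of the study, which names only genes that responded to its drug treatments. The 5 genes are therefore no census of the pathway, and they were not chosen blind to these data. All 5 were higher from 9 hpf on than up to 3 hpf in limma, with a median difference of 3.34 against 0.78 over all genes tested. That comparison called 77.4% of genes, 51.0% as higher. The libraries of the periods were apart in 3 of the 5, beside 23.2% of all genes with the later libraries above.

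The Hes repressors, the classical transcriptional targets of Notch, had the largest of these differences, at 10.93 for the HES1B_XENLA and 4.32 for the HES4B_XENLA match. The gene matching HES4B_XENLA (OFUSG23386) had 309 and 306 in the oocyte, 52.0 and 127 at 3 hpf, 1131 and 768 at 4 hpf, 3520 and 2833 at the coeloblastula, 8544 and 6433 in the gastrula and 1634 and 1989 in the mature larva. Like *delta* it was present in the oocyte, called at 4 hpf against 3 hpf (3.50, standard error 0.34, limma adjusted p = 4.26e-05) and highest in the gastrula. The gene matching HES1B_XENLA (OFUSG26267) had 1.33 and 1.37 at 3 hpf, 29.5 and 10.3 at 4 hpf, 1202 and 402 at the coeloblastula, 5587 and 4685 in the gastrula, 6532 and 6964 at elongation and 2946 and 3691 in the mature larva. Like *notch-like* it was near 0 before 4 hpf, and its difference at the coeloblastula against 4 hpf, of 5.23 (standard error 1.09), was called (adjusted p = 0.0248). Its highest stage mean was at elongation, and the mature larva, where *notch-like* was highest, had 49.2% of it.

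The gene matching NRARP_XENTR (OFUSG08218), a target of Notch that also dampens the pathway in vertebrates, had 322 and 789 in the gastrula and 104 and 124 in the mature larva. In larvae against gastrula and elongation it fell by 1.46 (limma adjusted p = 0.00565) and the HES4B_XENLA gene fell by 1.33 (adjusted p = 0.000449). These were the 2 of 5 called in that comparison, both downward like *delta*, beside 14.6% of all genes called lower. The libraries of the HES4B_XENLA gene were apart there, beside 13.8% of all genes with the larval libraries below, while those of the NRARP_XENTR gene overlapped. The ligand-like gene matching DLL4_RAT (OFUSG17277) stayed low, with at most 20.7 in any library. The gene matching the ADAM metalloprotease ADA17_DROME (OFUSG21507), a family whose members cut Notch, was highest at elongation, at 177 and 148, and had 5.22 and 4.29 at the coeloblastula.

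The 7 other candidates that the study placed in the posterior tip and chaetae were *fer3*, *lhx1/5*, *wnt1*, *msx2-a*, *irxA*, *AP2* and *wnt4*, which encode transcription factors and Wnt ligands. The study chose them on their response to its drugs. All 7 were higher from 9 hpf on (limma), beside 51.0% of all genes, with a median difference of 6.85. The libraries of 6 were apart, beside 23.2% of all genes. The exception, *wnt4* (OFUSG13755), had 222 in replicate 2 of the oocyte and 3.11 in replicate 1. At each stage up to 3 hpf *wnt4* and *irxA* were, like *notch-like*, higher in replicate 2, and *AP2* was higher in replicate 1. None of the 7 was called in limma at 4 hpf against 3 hpf, where 0.639% of all genes were, or at the coeloblastula against 4 hpf, where 1.27% were. At shares this low, a count of 0 does not set the 7 apart from other genes, and the unadjusted p was under 0.05 for *wnt1* at the first of these steps and for *fer3* at the second. In the gastrula against the coeloblastula 5 of 7 were called higher, from *fer3* (OFUSG04687, 2.86, adjusted p = 0.0428) to *irxA* (OFUSG05354, 7.67, adjusted p = 0.00709). Of all genes, 29.5% were called there, 18.0% as higher.

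Set against their own peaks, *delta* was ahead of these candidates at 4 hpf, at 43.2%, where *fer3* had 1.74%, *lhx1/5* (OFUSG14965) 5.05%, *wnt1* (OFUSG16504) 0.571%, *msx2-a* (OFUSG05673) 0.909%, *irxA* 0.249%, *AP2* (OFUSG17466) 0.548% and *wnt4* 5.09%. *notch-like* stood among them with 0.655%. At the coeloblastula *notch-like* had 17.7% and *fer3* 14.6%, and the other 6 had between 0.315% and 5.00%. The highest stage mean was that of the gastrula for *fer3*, *wnt1* and *AP2*, of the early larva for *lhx1/5* and *msx2-a*, and of the mature larva for *irxA* and *wnt4*. In larvae against gastrula and elongation none of the 7 was called in limma (33.7% of all genes were), the lowest adjusted p being 0.136 for *msx2-a*, and 0 of 7 also had an unadjusted p under 0.05. With only the 8 libraries compared, 6 of the 7 were called, in a fit that called 9599 genes in all, against 8065.

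**Figure D4:**
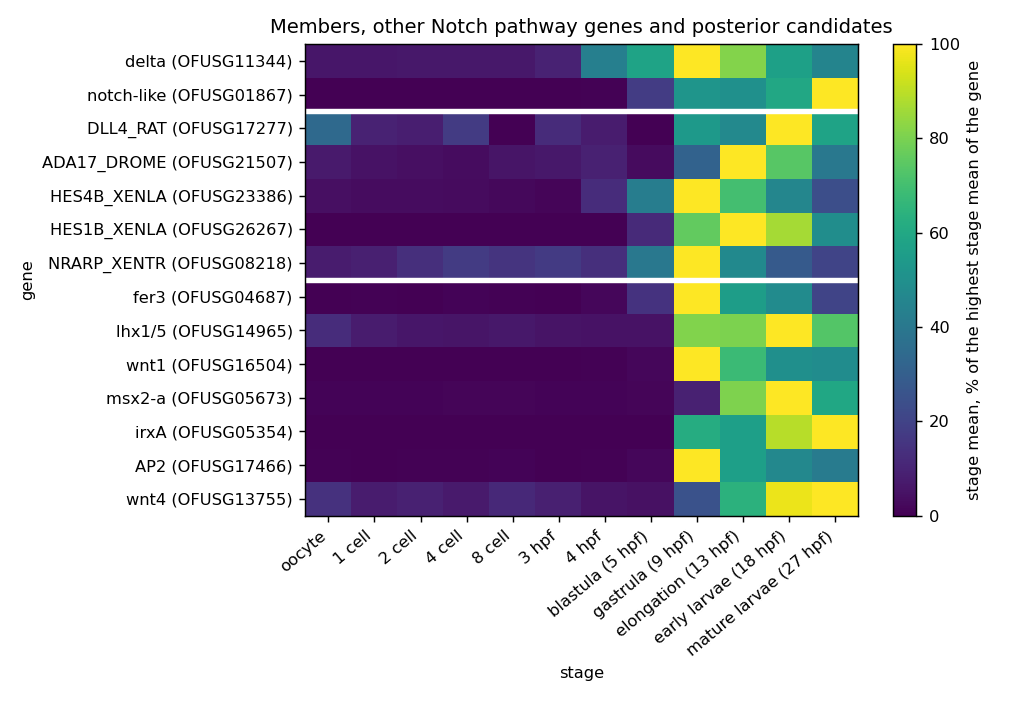
Stage mean as a percentage of the highest stage mean of the same gene (colour, 0 to 100%) for *delta* and *notch-like* (top), 5 other Notch pathway genes named by their best protein match (middle) and 7 other posterior candidates (bottom), with stages in order of development. At 4 hpf *delta* is at 43.2% of its peak and *notch-like* at 0.655%, and the peaks of the rows run between the gastrula and the mature larva.

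**Figure D5:**
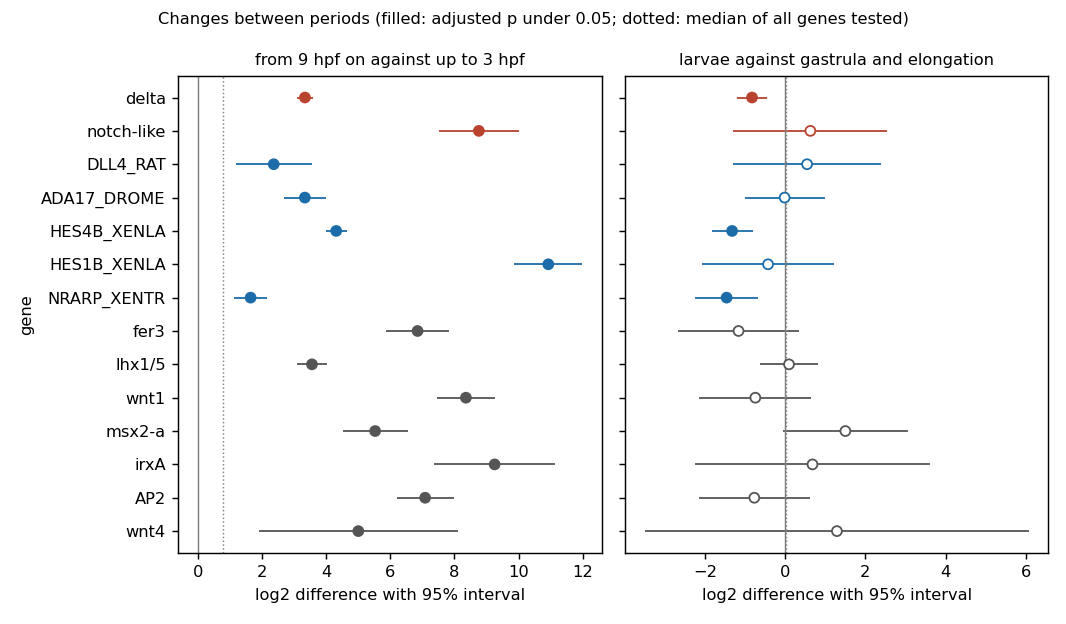
Difference of log2(value + 1) with its 95% interval (horizontal axis) from 9 hpf on against up to 3 hpf (left) and in larvae against gastrula and elongation (right), for *delta* and *notch-like* (red), the Notch pathway genes (blue) and the posterior candidates (grey), with filled points for a limma adjusted p under 0.05 and a dotted line at the median of all genes tested. All 14 genes were called on the left, and on the right *delta* and the genes matching HES4B_XENLA and NRARP_XENTR were called lower.

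Profiles were compared by the Pearson correlation of log2(value + 1) over the 12 stage means, as a description in which all genes share the same libraries. A protein match was at hand for 580 of the genes tested, from the annotation that names only genes that responded to the drugs. Among these, those most like *delta* matched LRIG3_HUMAN (OFUSG25366, r = 0.987), a leucine-rich repeat membrane protein, MRC1_HUMAN (OFUSG17424, r = 0.980) and FOXJ3_HUMAN (OFUSG09682, r = 0.975), a forkhead factor. The study names this forkhead gene *foxQ2* and lists it among its apical or anterior candidates. The LRIG3_HUMAN gene had 109 and 53.2 at 3 hpf, 715 and 501 at 4 hpf and 1262 and 1464 in the gastrula. The other named genes differ from *delta* in their start and peak: the MRC1_HUMAN gene was listed at 0 in every library up to 3 hpf and was highest at the coeloblastula, at 8507 and 4052, and the FOXJ3_HUMAN gene was also highest there, at 2106 and 1036. Over all genes the highest r was that of OFUSG07004, at 0.991, and the 3 named genes were at ranks 6, 23 and 35.

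Those most like *notch-like* matched NX22A_DANRE (OFUSG12225, r = 0.986), an Nkx2.2 homeobox factor, HES1B_XENLA (OFUSG26267, r = 0.985) and SIX3_HUMAN (OFUSG12368, r = 0.979), a homeobox factor of anterior tissue. The study names the SIX3_HUMAN match *six3/6* and lists it too among its apical or anterior candidates. Unlike *notch-like*, none of these named genes was highest in the mature larva. The NX22A_DANRE and SIX3_HUMAN genes had their highest stage mean in the gastrula, and the HES1B_XENLA gene at elongation. Over all genes the highest r was that of OFUSG20763, at 0.994, and the 3 named genes were at ranks 8, 15 and 41. Late starting genes are many: 2540 genes (10.6%) had an r over 0.9 with *notch-like* and 701 (2.93%) with *delta*. *delta* and *notch-like* had an r of 0.910 with each other, which put *notch-like* at rank 549 of the 23933 genes set beside *delta*. Without logs none of the 6 named genes was chosen again by the same rule, OFUSG07004 had the second highest r with *delta* (0.982), OFUSG20763 was at rank 102 for *notch-like*, and the r of *delta* with *notch-like* was 0.667. Replicate 1 alone gave all named genes of *delta* again, but of those of *notch-like* only the SIX3_HUMAN match. Replicate 2 alone gave the LRIG3_HUMAN and MRC1_HUMAN matches again for *delta* and only the HES1B_XENLA match for *notch-like*.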

How the data were processed

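The deposited values are a normalised signal per transcript that the authors made, by the processing notes of the labels with kallisto 0.46.2 and DESeq2 1.30.1 among the tools. The study names a genome assembly and annotation of *O. fusiformis*, but its use for this table and any filters are not given in the sources used here. Of 27 columns, 3 match no sample and were not used. The columns of 3 and 4 hpf are headed by cell number and were matched to the labels through the text of the study (4 hpf) and by elimination (3 hpf). Transcripts were summed by gene, genes with at least 10 in 2 or more libraries were tested, and log2(value + 1) was fitted with limma 3.58.1 (R 4.3.3), with a variance trend and stage as the only factor. The fit was also run on simulated data, with independent errors and with changes only in genes of higher mean level. That run does not bear on differences shared by a replicate number or on genes near 0. Whole reads could not be recovered, so no count test was run. Ratios were tested by exact permutation (scipy 1.17.1). Genes named are the members, the lists and, for each member, the 3 best correlated genes with a protein match and the best of all. Members and lists were chosen with earlier results of these data known. Positions of the genes were not used here, nor were the 2 ATAC-seq peak files. Alternatives were TMM scaling, no filter, pseudocounts of 0.1 and 10, no variance trend, a replicate block, single transcripts, only the stages compared, and leaving out each library.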

Additional observations from a re-analysis of the deposited data

How the results depend on the processing

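The rises of *delta* and *notch-like* from 9 hpf on, the fall of *delta* in larvae and the calls of the Notch pathway list kept their direction and side of the threshold, with 1 exception within the list (4 of 5 called on single transcripts). Over the other 8 settings the rise of *delta* was 3.00 to 3.35 and that of *notch-like* 6.79 to 10.05, and without single libraries 3.28 to 3.41 and 8.45 to 9.07. In larvae *delta* changed by -0.89 to -0.83, and *notch-like* by 0.57 to 0.63, called with only the stages compared (0.63). Calls among neighbouring levels numbered 1, but 3 with a pseudocount of 10 and 2 with the replicate block. Posterior candidates called in larvae numbered 0, but 3 with a pseudocount of 10 and 6 with only the stages compared. The larval difference in ratio was 1.00 with replicate 1 and 1.92 with replicate 2, where 2 against 2 libraries cannot give a p under 0.333. By the rule used, replicate numbers were not treated as pairing the libraries in the main fit. Even so, differences between replicates correlated at over 0.1 in 57 of 66 pairs of stages (median 0.34, 0.0391 to 0.692). Among the stages up to 3 hpf the correlations were 0.571 to 0.692. Libraries of the same replicate number therefore shared differences that the main fit leaves out. Over the successive stages and the gastrula against 4 hpf, the replicate block gave 5 calls of the members, against 4 in the main fit. The block added *notch-like* at the coeloblastula (adjusted p = 0.0258, limma) and changed no other call of the members. Genes called varied more than 1.5 times at 3 hpf against 8 cells (41, 0 to 54), 4 against 3 hpf (153, 0 to 204), the coeloblastula (305, 0 to 549), elongation (1513, 407 to 2820), the early larva (631, 150 to 1862) and the mature larva (890, 332 to 1856). At 4 against 3 hpf there were 55 without replicate 1 of 4 hpf, and 84 and 100 without replicate 2 and 1 of 3 hpf. They also varied at 1 cell (0, 0 to 4) and 8 cells (0, 0 to 1). Depth limits *notch-like* before 5 hpf, where no library had over an estimated 17 reads. With only the stages compared, *notch-like* passed no filter at 4 of the early steps and has no value.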
